A study of Mus musculus with 2 samples.

Results

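Sonic hedgehog signalling genes were examined in the newborn mouse midbrain as a set of 9 genes: the ligand Shh, the receptor Ptch1, the co-receptors Boc and Cdon, the signal transducer Smo, the inhibitor Sufu, and the transcription factors Gli1, Gli2 and Gli3. The genes were taken by symbol as named components of the pathway, and all 9 were found among the 43346 Ensembl genes of the table. Total RNA (10 ng, over 200 nucleotides) was sequenced from B6NCrl mice at postnatal day 0; the labels name no allele or treatment, and sex was not collected. The only group holds 2 animals, called pup 1 (replicate 1) and pup 3 (replicate 2) here, each with its own midbrain and library, and both carry the same donor identifier. The design holds no contrast between conditions, so the results are levels, ratios between genes, shares of transcripts and how far the pups differed.

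Hedgehog signalling starts when the secreted, lipid-modified ligand binds Patched at the primary cilium, which relieves the inhibition that Patched holds over the membrane protein Smoothened. Active Smoothened allows the Gli factors to escape Sufu and proteolytic processing, so that Gli2 and Gli3 work less as repressors and more as activators, and Ptch1 and Gli1 are themselves induced as target genes. In the embryonic midbrain Shh comes from the floor plate and patterns the ventral side, where dopaminergic and other ventral neurons arise.

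The libraries held 36934868 (pup 1) and 40769103 (pup 3) expected reads, that is reads assigned to genes by a statistical estimate. Of 5 midbrain markers, 4 reached 1 TPM (the share of all transcripts, corrected for transcript length) in each pup, beside 62.1% of all protein-coding genes. The highest were Tcf7l2 at 685 TPM and Otx2 at 50.7 TPM, with En1 at 8.21 TPM, Pax7 at 2.76 TPM and En2 at 0.810 TPM. Of 5 Hox genes of the hindbrain, 4 were at 0 in both pups. All 12 hypothalamic and forebrain markers were higher in pup 3, 6 of the 9 that passed a mean count of 100 by more than 1 on the log2 scale (Six6, Oxt, Avp, Hcrt, Pmch and Dlx2), and their summed level was 175 and 392 TPM in pups 1 and 3. A bulk library cannot tell fewer cells of a type from less RNA per cell.

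Ptch1 and Sufu each have more than 1 transcript with a complete coding sequence of different length and a share of the level, and the stretches that tell these forms apart are shown because the transcript shares below turn on them. They were read from GENCODE M21 transcripts on build GRCm38, 5′ to 3′ in the sense of the gene. For Ptch1 the first coding bases of the long form (chr13:63565362-63565520, minus strand) and of the short form (chr13:63548037-63548126, minus strand) are given with the start codon in capitals. The short form begins inside the coding sequence of the long form, after 411 coding bases, so that the long form has 137 more residues at its amino end. For Sufu the same stretch of 2 coding forms is given across a splice junction (chr19:46450934-46453191, plus strand), and capitals mark a codon that only the longer form holds.
Ptch1 long form: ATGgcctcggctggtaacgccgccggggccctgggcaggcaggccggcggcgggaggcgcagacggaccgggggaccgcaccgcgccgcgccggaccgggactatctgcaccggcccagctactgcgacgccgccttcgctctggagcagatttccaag
Ptch1 short form: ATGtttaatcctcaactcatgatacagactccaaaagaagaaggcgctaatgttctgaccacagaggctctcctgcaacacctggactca
Sufu shorter form: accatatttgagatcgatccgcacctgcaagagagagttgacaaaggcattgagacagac
Sufu longer form: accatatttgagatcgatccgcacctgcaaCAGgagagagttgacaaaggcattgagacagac

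On the scale of TPM, the inhibitor Sufu was the highest of the 9 genes and the co-receptor Cdon the lowest, at 11.1 ± 0.686 and 0.595 ± 0.106 TPM (SD, n = 2 pups). The order of mean levels was Sufu, Smo, Ptch1, Gli3, Boc, Gli1, Shh, Gli2 and Cdon. Neighbours in the order were called apart where the log2 ratio had the same sign in both pups, its mean was over 3 SD, and the deposited intervals of the 2 genes did not overlap in either pup. By that rule 3 of the 8 neighbouring pairs were apart, namely Sufu above Smo, Ptch1 above Gli3 and Boc above Gli1. The other 5 pairs were not told apart. The order depended on the scale: by reads not divided by length it was Sufu, Ptch1, Smo, Gli3, Boc, Cdon, Gli2, Gli1 and Shh. The neighbours apart by reads were Ptch1 above Smo, Smo above Gli3 and Gli1 above Shh. The 3 neighbouring pairs apart by TPM were not neighbours by reads, so the rule was not applied to them there. Their direction was kept in the reads of pups 1 and 3. Sufu had 982 and 967 against 504 and 588 for Smo, and Ptch1 had 757 and 878 against 390 and 486 for Gli3. Boc had 338 and 251 against 75 and 84 for Gli1.

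**Figure D1:**
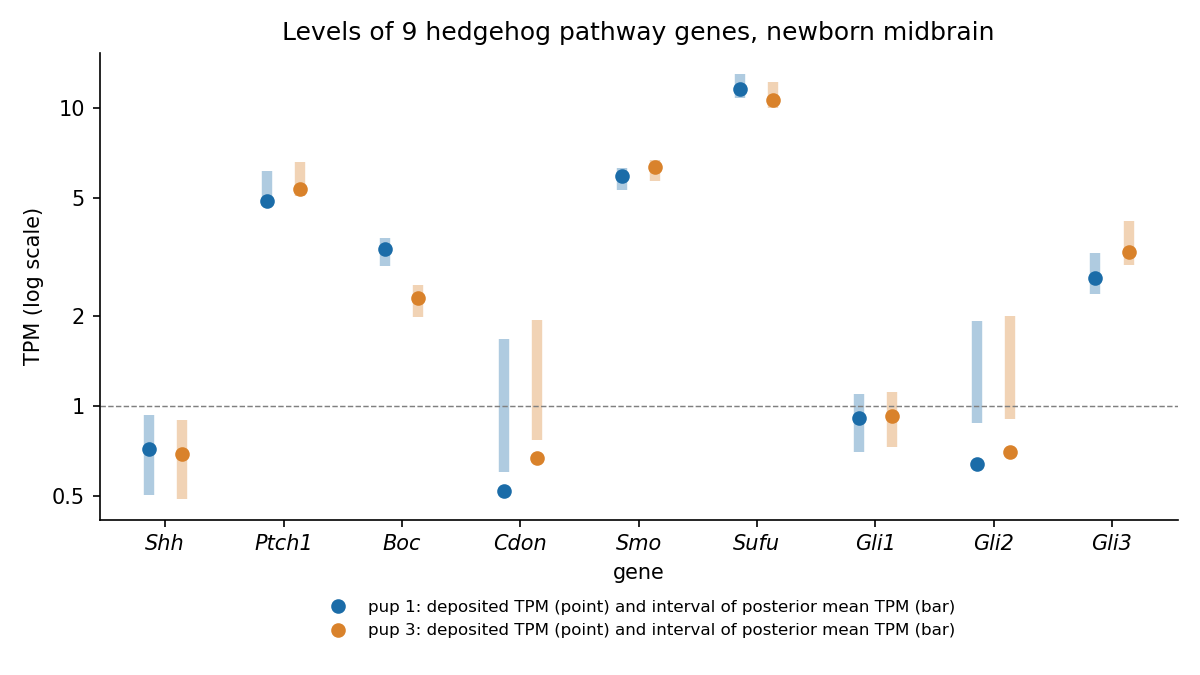
TPM of each of the 9 genes on a log axis in pup 1 and pup 3, ordered by role, with the deposited TPM as a point and the deposited interval of the posterior mean TPM as a bar. Sufu is highest in both pups, Boc is the gene whose bars do not overlap between pups, and the points of Cdon and Gli2 lie below their own bars.

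The ligand was present at a low level. Shh (ENSMUSG00000002633.3, chr5:28456815-28467256, minus strand, GRCm38) stood at 0.720 TPM in pup 1 and 0.690 TPM in pup 3, from 43.4 and 45.5 expected reads, and the deposited intervals were 0.504 to 0.933 and 0.490 to 0.900 TPM. The pups were alike in this gene within those intervals. Its counts were not whole, so that some of its reads were shared out between genes. Gm26894 (a long noncoding RNA, 8.60 and 24.2 reads) and 9530036O11Rik (an antisense RNA, 6.00 and 6.29 reads) overlap its span on the opposite strand. The counts of each gene are given separately, as an estimate. The strand setting of the counting is not given, so it is not known how well the estimate keeps their reads from those of Shh.

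The other hedgehog ligands were lower than Shh. Desert hedgehog (Dhh), known from the testis and peripheral nerve sheath, was at 0.290 and 0.190 TPM in pups 1 and 3, and Indian hedgehog (Ihh), known from cartilage and gut, at 0.180 TPM in both. Ratios and folds of TPM between 2 named genes, here and below, were taken on TPM + 0.1, which understates them where a gene is low. The log2 ratio to Shh was -1.26 ± 0.26 for Dhh and -1.52 ± 0.038 for Ihh (SD, n = 2), and both pairs were apart by the rule above. Neither paralog reached 1 TPM, and each rested on 10 to 15 reads per pup. The genes that lipidate and release the ligand were all above Shh in mean level: all 5 reached 1 TPM in each pup. Disp1, which releases the lipid-modified ligand from the cell, was highest at 6.32 ± 0.028 TPM, followed by Scube1 (3.24 ± 0.12 TPM) and Scube3 (2.98 ± 0.56 TPM), secreted carriers of the ligand. Scube2 was lowest at 1.51 ± 0.56 TPM, with 1.11 TPM in pup 1 and 1.90 TPM in pup 3.

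Of the floor plate, where Shh is made in the embryo, 6 of 9 markers reached 1 TPM in each pup, near the 62.1% of all protein-coding genes. Spon1 (34.2 TPM), Ntn1 (8.17 TPM) and Lmx1a (2.85 TPM) were the highest by mean. Lmx1b (0.625 TPM), Ferd3l (0.335 TPM) and Corin (0.105 TPM) were the lowest. Foxa2, a floor plate factor and a gene induced by hedgehog signalling, was at 2.84 and 2.29 TPM in pups 1 and 3, 3.29-fold above Shh (log2 ratio 1.72 ± 0.17). Of this list, the 6 genes that passed a mean count of 100 held none that differed by more than 1 on the log2 scale between the pups.

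The receptor stood well above its ligand. Ptch1 (ENSMUSG00000021466.7, chr13:63508328-63573598, minus strand) was at 4.88 TPM in pup 1 and 5.34 TPM in pup 3, from 757 and 878 reads, with intervals of 4.70 to 6.15 and 5.08 to 6.59 TPM. The pups overlapped. The ratio of Ptch1 to Shh on TPM + 0.1 was 6.47-fold, and the pair was apart. The log2 ratio was 2.60 in pup 1 and 2.78 in pup 3 (mean 2.69 ± 0.13). With 0.01 added in place of 0.1 the mean log2 ratio was 2.84. A930032L01Rik, annotated within the span of Ptch1 on the same strand, held 1 and 11 reads.

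Ptch1 was also above Hhip, a surface protein that sequesters hedgehog ligands and is itself induced by the pathway in other settings. Hhip was at 3.08 and 3.42 TPM in pups 1 and 3, with a log2 ratio to Ptch1 of -0.64 ± 0.014, and the pair was apart.

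Of the co-receptors, Boc was the higher by TPM. Boc (ENSMUSG00000022687.7, chr16:44485049-44558897, minus strand), an immunoglobulin and fibronectin domain protein that presents the ligand to Ptch1, was at 3.38 TPM in pup 1 and 2.30 TPM in pup 3, from 338 and 251 reads. It was lower in pup 3 and its intervals, 2.96 to 3.66 and 1.99 to 2.55 TPM, did not overlap. Cdon (ENSMUSG00000038119.10, chr9:35421128-35507652, plus strand), its paralog, was at 0.520 and 0.670 TPM, from 81 and 116 reads, with intervals of 0.603 to 1.68 and 0.771 to 1.94 TPM. Cdon thus lay the other way, lower in pup 1, with intervals that overlapped between pups. Boc was 4.18-fold above Cdon by TPM, with a log2 ratio of 2.49 in pup 1 and 1.64 in pup 3 (mean 2.06 ± 0.60). The pair was apart by TPM but not by posterior mean TPM, where the log2 ratio was 1.13, nor by reads not divided by length, where it was 1.59.

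Gas1, the membrane-anchored co-receptor that shares the role of Boc and Cdon, was above both. Its level was 11.0 and 10.5 TPM in pups 1 and 3, 3.75-fold above Boc (log2 ratio 1.90 ± 0.33) and 15.7-fold above Cdon (3.97 ± 0.27), and both pairs were apart. The log2 ratio of Gas1 to Cdon was 3.03 by posterior mean TPM and 2.93 by reads not divided by length. Among the 6 surface modulators, 5 reached 1 TPM in each pup. Gpc3 (55.8 TPM) and Gpc5 (12.0 TPM), glypicans of the cell surface, were the highest with Gas1 (10.7 TPM), and Lrp2, an endocytic receptor, was the lowest at 0.225 TPM.

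Smo (ENSMUSG00000001761.6, chr6:29735503-29761365, plus strand), the transducer that Ptch1 holds in check, was at 5.92 TPM in pup 1 and 6.33 TPM in pup 3. These rested on 504 and 588 reads, and the intervals of 5.30 to 6.30 and 5.70 to 6.70 TPM overlapped. By TPM, Smo and Ptch1 were not apart: the log2 ratio was 0.27 in pup 1 and 0.24 in pup 3, and the intervals of both genes overlapped in both pups. By reads not divided by length the direction turned, with a log2 ratio of Smo to Ptch1 of -0.58. All 9 regulators of Smo reached 1 TPM in each pup. Mgrn1, a ubiquitin ligase that lowers Smo at the surface, was highest (93.3 TPM), followed by the arrestin Arrb2 (48.3 TPM) and the EvC complex subunit Iqce (28.4 TPM), while Evc, a ciliary partner of Smo, was lowest at 2.35 TPM.

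Sufu (ENSMUSG00000025231.12, chr19:46396896-46488804, plus strand), which binds the Gli proteins and keeps them from activating their targets, was at 11.6 TPM in pup 1 and 10.7 TPM in pup 3, from 982 and 967 reads. Its intervals of 10.8 to 13.0 and 9.98 to 12.3 TPM overlapped. Sufu was 3.64-fold above Gli3 (log2 ratio 1.86 ± 0.29) and 7.81-fold above Kif7, a ciliary kinesin that works with it on the Gli proteins (Kif7 1.44 and 1.24 TPM, log2 ratio to Sufu -2.97 ± 0.054), and both pairs were apart. Kif7 was the lowest of 14 Gli regulators, all of which reached 1 TPM in each pup. The highest were Prkaca (216.7 TPM), Csnk1a1 (205.0 TPM) and Prkacb (185.7 TPM), kinase genes whose products phosphorylate the Gli proteins.

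Of the Gli factors, Gli3 was the highest. Gli3 (ENSMUSG00000021318.11, chr13:15463235-15730026, plus strand), known mainly as a repressor, was at 2.70 TPM in pup 1 and 3.30 TPM in pup 3, from 390 and 486 expected reads, with intervals of 2.39 to 3.27 and 2.97 to 4.19 TPM. Pup 3 was higher and the intervals overlapped. Its counts were not whole, and Gm6556, on the opposite strand at its 5′ end, held 10.5 and 17.4 reads.

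Gli1 (ENSMUSG00000025407.6, chr10:127329882-127341974, minus strand), an activator and a commonly used readout of the pathway, was at 0.910 and 0.930 TPM, from 75 and 84 reads. Its intervals were 0.700 to 1.10 and 0.730 to 1.12 TPM, and the pups overlapped almost wholly. Arhgap9 overlaps its 3′ end on the opposite strand with 30 and 37 reads. Gli1 was 5.10-fold below Ptch1 (log2 ratio -2.35 ± 0.070), and that pair was apart, although both are induced by hedgehog signalling.

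Gli2 (ENSMUSG00000048402.10, chr1:118834132-119053619, minus strand), known as the main activator, was at 0.640 TPM in pup 1 and 0.700 TPM in pup 3, from 86 and 90 reads. Its deposited intervals, 0.877 to 1.93 and 0.909 to 2.00 TPM, overlapped between the pups but lay above the deposited TPM in each. Gli3 was 3.03-fold above Gli1 (log2 ratio 1.60 ± 0.18) and 4.01-fold above Gli2 (2.00 ± 0.12), and both pairs were apart. By posterior mean TPM the log2 ratio of Gli3 to Gli2 was 1.12. Gli2 and Gli1 were not apart (-0.41 ± 0.060). The sign of that ratio was the opposite by posterior mean TPM (0.57) and by reads not divided by length (0.15).

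Among the 9 genes, 5 reached 1 TPM in each pup (Ptch1, Smo, Gli3, Sufu and Boc), while 62.1% of 21474 protein-coding genes did. The share of the members is near that background. The same 62.1% is the background for the counts at 1 TPM given for the marker lists and the related pathway lists. Against all protein-coding genes, Sufu stood at percentile 61.4, Smo at 53.2 and Ptch1 at 51.1, and the lowest 4, Gli1, Shh, Gli2 and Cdon, between percentiles 33.8 and 36.5. The median of the 9 genes was 2.70 TPM in pup 1 and 2.30 TPM in pup 3, beside 4.52 and 4.70 TPM for all protein-coding genes.

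Of 13 genes of the primary cilium, the organelle in which the pathway runs, all 13 reached 1 TPM in each pup. The highest were Kif3a (289.7 TPM), Ift52 (26.2 TPM) and Ift122 (19.7 TPM), with Gpr161, a ciliary receptor that restrains the pathway, lowest at 2.21 TPM. Of 9 genes reported as hedgehog targets, all 9 reached it too. Mycn (21.4 TPM), Ccnd1 (15.0 TPM) and Olig2 (12.8 TPM) were the highest and Nkx6-1 (1.61 TPM) the lowest. Many of these genes also answer to other signals, and their levels alone do not measure the pathway's activity.

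**Figure D2:**
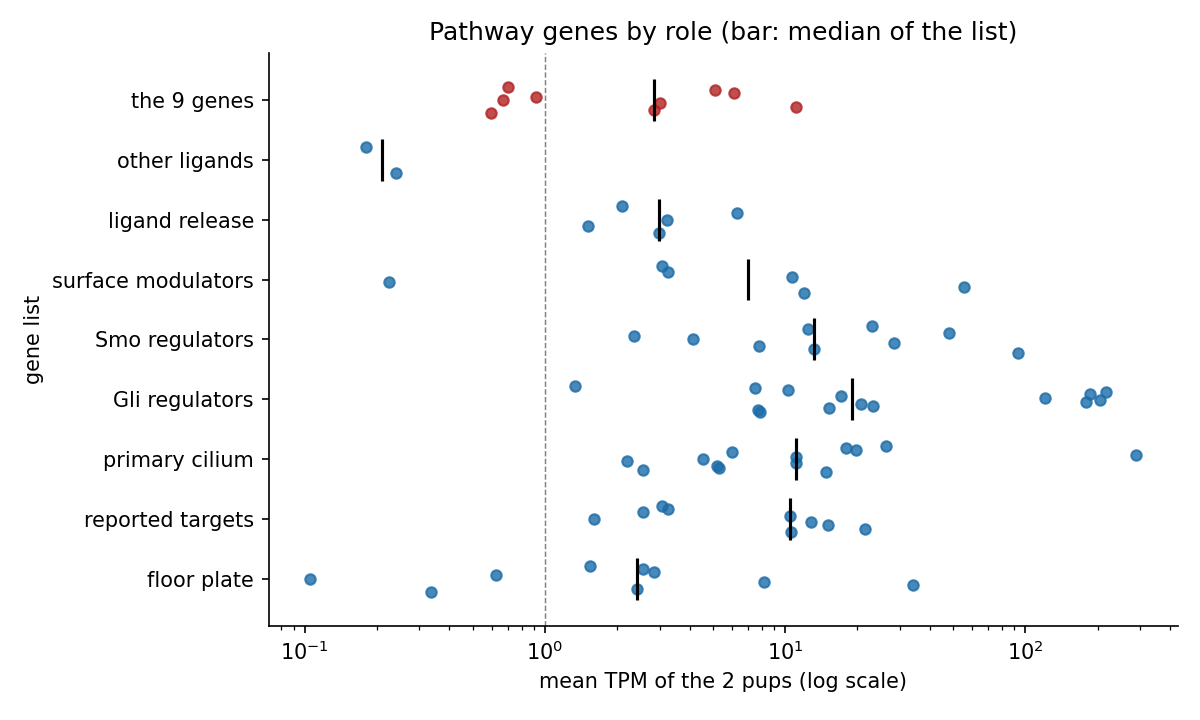
Mean TPM of the 2 pups on a log axis for the 9 genes and 8 lists of related genes, 1 point per gene, with a bar at the median of each list. The 9 genes span 0.595 to 11.1 TPM, while the Gli regulators reach 216.7 TPM and both other ligands lie below 1 TPM.

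The deposited tables carry 2 estimates of each level, the maximum-likelihood TPM used above and a posterior mean TPM, which averages over possible assignments of reads to transcripts. The estimates lay close together in 7 of the 9 genes and apart in Gli2 and Cdon. For Gli2 the posterior mean TPM was 1.37 in pup 1 and 1.43 in pup 3, 2.09 times the maximum-likelihood TPM. For Cdon it was 1.09 and 1.31 TPM, 2.02 times. In the other members the ratio of the estimates ranged from 0.978 in Smo to 1.10 in Ptch1.

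A posterior mean over 1.5 times the maximum-likelihood TPM was found in 2 of the 9 members and in 2.62% of 17831 genes with a mean count of at least 10. That share was 0.161% among genes with 1 transcript in the file, 2.74% with 2 to 4 and 5.08% with 5 or more. Gli2 has 9 transcripts in the file, of which 8 are shorter than 1500 bases, and Cdon has 6. In Gli2, the 6 transcripts at 0 TPM by maximum likelihood in both pups held 46.5% (pup 1) and 50.2% (pup 3) of the posterior mean level. In Cdon, 2 such transcripts held 36.7% and 39.1%. By posterior mean the order of the lowest genes changed to Gli2, Cdon, Gli1 and Shh, and 2 of the 8 neighbouring pairs were apart (Sufu above Smo and Ptch1 above Gli3). Boc and its next neighbour on that scale, Gli2, were not (log2 ratio 0.97 ± 0.43).

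**Figure D3:**
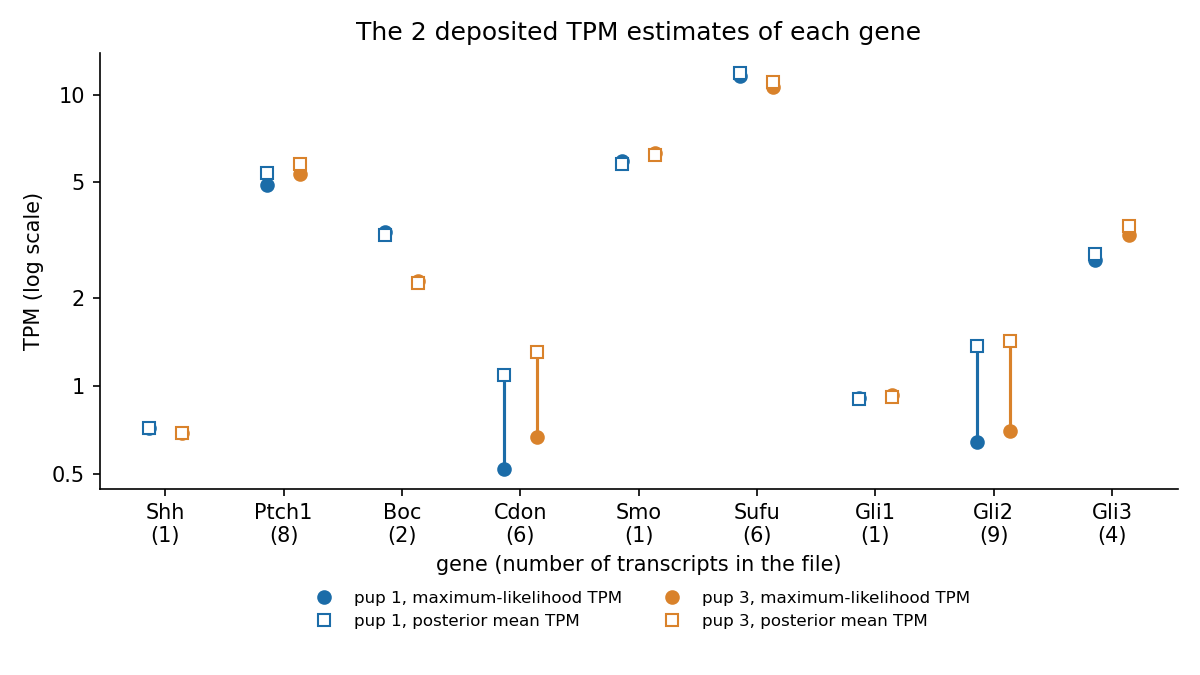
The deposited maximum-likelihood TPM (filled circles) and posterior mean TPM (open squares) of each gene in pup 1 and pup 3 on a log axis, with the number of transcripts in the file under each name. The estimates differ by 2.09 times in Gli2 and 2.02 times in Cdon, and nearly coincide in the genes with 1 transcript.

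Transcript shares, the percent of a gene's TPM given to each of its transcripts, could be compared in 6 members. Shh, Smo and Gli1 have 1 transcript each in the file, with 437, 793 and 1111 encoded residues. In each of the 6 others the same transcript led in both pups, and it held more than 50% of the TPM.

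Ptch1 was led by the short form shown above (ENSMUST00000192155.1, 1297 residues), with 87.0% of the gene's TPM in pup 1 and 72.0% in pup 3. The long form (ENSMUST00000021921.6, 1434 residues) held 4.96% and 8.81%. The short form led in both pups, by posterior mean also, with 74.7% and 62.8%. A transcript annotated as subject to nonsense-mediated decay (ENSMUST00000194663.1) held 3.49% and 10.3%. The files do not give how many reads fall on the bases that tell the forms apart.

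Sufu divided over 2 main coding transcripts. ENSMUST00000039922.8, the shorter coding form of 484 residues, held 69.0% in pup 1 and 68.2% in pup 3, and ENSMUST00000111867.4, the longer coding form of 485 residues with the added codon at coding bases 757 to 759 (chr19:46453159-46453161), held 20.7% and 25.1%. The pups were close in the leading share. These transcripts also differ in length, 4522 against 1747 bases, so that the shares do not measure the codon alone. Another coding form of 467 residues (ENSMUST00000118440.1) held 9.73% and 5.73%.

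Gli3 was led by the full coding transcript (ENSMUST00000110510.3, 1583 residues), with 67.7% in pup 1 and 60.3% in pup 3. A transcript annotated as a retained intron (ENSMUST00000130535.1) held 17.4% and 21.9%. A short coding transcript with an incomplete end (ENSMUST00000130065.3) held 14.9% and 17.8%, and its 1789 coding bases all lie within the 4749 of the full one. The full form led in both pups, and by posterior mean too, with 63.1% and 54.9%.

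In Gli2 the only transcript annotated as protein-coding with a complete coding sequence, ENSMUST00000062483.10 (1544 residues), held 86.2% in pup 1 and 73.5% in pup 3. By posterior mean it held 37.4% and 33.2%. Cdon behaved alike: ENSMUST00000119129.4 held 82.4% and 73.2% by maximum likelihood and 28.8% and 25.6% by posterior mean. A second Cdon transcript from another start site (ENSMUST00000042842.5) encodes the same number of residues, 1250, and held 8.58% and 18.5%. Boc was given to 1 transcript wholly in both pups, ENSMUST00000023370.6, which is not in GENCODE M21. By posterior mean, 4 of the 6 genes kept a transcript above 50%.

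**Figure D4:**
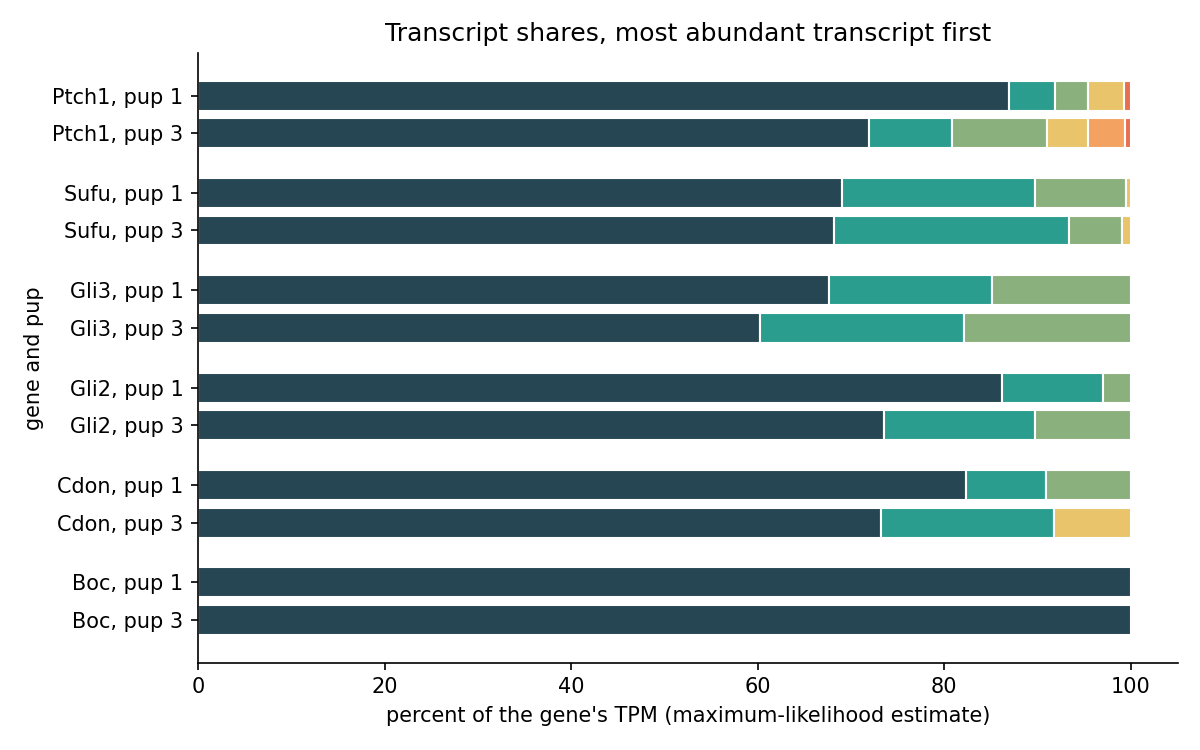
Percent of each gene's maximum-likelihood TPM given to each of its transcripts in pup 1 and pup 3, stacked from the most abundant transcript by mean share. The leading transcript holds from 60.3% (Gli3, pup 3) to 100% (Boc), and the Ptch1 lead is 87.0% in pup 1 and 72.0% in pup 3.

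Between the pups no member differed by more than 1 on the log2 scale. Of the 5 that passed a mean count of 100 (Ptch1, Smo, Gli3, Sufu and Boc), 0 differed by more than 1 on the log2 scale of TPM + 0.1, beside 0.315% of 13318 genes. At a mean count of 10 all 9 passed and again 0 differed by that much, beside 2.12% of 17831 genes. Shares that low leave few genes to be called in a set of this size, so the 0 does not set the members apart. The median size of the difference over the 13318 genes was 0.110. There were 6 members higher in pup 3 and 3 lower (Shh, Sufu and Boc), while 54.8% of all genes tested at the mean count of 100 were higher in pup 3. No p is printed, since an exact sign-flip test over 2 animals reaches 0.5 at the lowest.

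Boc had the largest difference in size among the 9 genes, lower in pup 3 by a log2 difference of -0.54. From reads, scaled to the library totals, the difference was -0.57 with an exact 95% interval of -0.81 to -0.33 for counting error alone. Among 2032 genes with a mean count within 1.5 times that of Boc, 4.43% differed at least as much in either direction. The 8 other members had deposited intervals that overlapped between the pups. Beside this, the markers of other cells and regions moved too: all 4 markers of oligodendrocyte precursors (summed 180.8 TPM in pup 1 and 164.6 TPM in pup 3), 4 of 5 of vessels (159.3 and 137.3 TPM) and 5 of 6 of astroglia (2789 and 2686 TPM) were lower in pup 3. All 12 of the hypothalamus and forebrain and 5 of 6 genes listed for cerebellar granule cells (50.3 and 65.3 TPM) were higher in pup 3. In the granule cell list Atoh1 was nearly absent (0.02 and 0 TPM in pups 1 and 3). Barhl1, the highest, was level (31.5 and 31.6 TPM). The rise lay in Neurod1, Zic1, Zic2 and Pax6, so the list does not by itself show granule cells. The part of all these markers in the difference of Boc was not tested.

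The remaining members moved less. Cdon differed by 0.31, Gli3 by 0.28, Ptch1 by 0.13, Gli2 by 0.11, Smo by 0.10, Gli1 by 0.03, Shh by -0.05 and Sufu by -0.12 on the log2 TPM scale. Sufu was the second member for which the counting interval of the read ratio left out 0 (-0.16, interval -0.29 to -0.04), although its deposited TPM intervals overlapped. Gli2 was the member whose sign changed with the scale: it was -0.08 by reads scaled with either TMM or DESeq2 size factors.

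**Figure D5:**
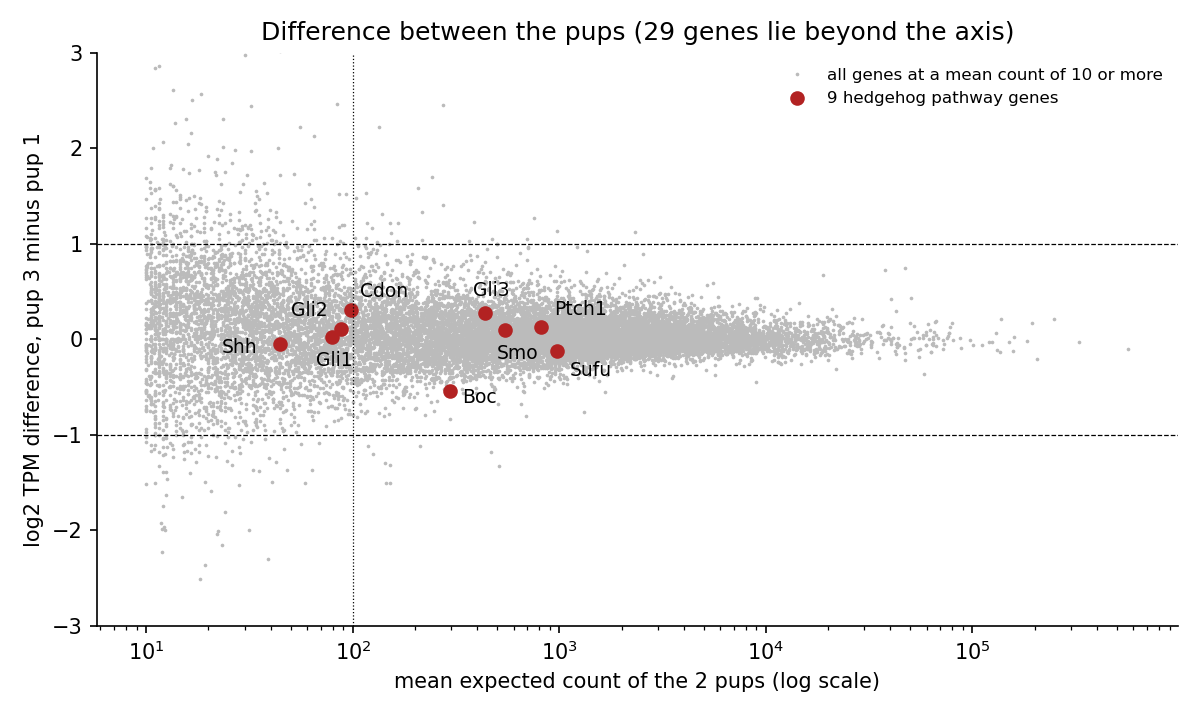
Log2 TPM difference, pup 3 minus pup 1, against the mean expected count on a log axis, for every gene with a mean count of at least 10 (grey) and the 9 genes (red), with dashed lines at a difference of 1 in either direction and a dotted line at a count of 100. All 9 genes lie between the dashed lines, Boc lowest at -0.54, and 29 grey genes lie beyond the axis.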

How the data were processed

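Total RNA from the midbrain of 2 newborn pups was quantified by the authors per gene and transcript on build mm10 with GENCODE M4, per the deposited text record. The program, its version and the strand of counting were not given in the sources used here. The deposited tables give expected counts, TPM, an interval around the posterior mean TPM (of unstated level), a score (the posterior SD of the count, not used), FPKM (not used), and for transcripts the percent of the gene's TPM. The interval bounds, a signal on the TPM scale, are used as deposited. TPM was scaled by the authors over every feature of the file, spike-ins included. Depth was 36934868 and 40769103 expected counts, and exact 95% intervals cover counting error only.

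Symbols came from GENCODE M21 and matched 42462 of 43346 Ensembl genes (98.0%). Coordinates, protein lengths and printed bases are those of M21 on GRCm38, the same assembly as mm10. Where a transcript is not in M21, its protein is not described.

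Levels are means ± SD over the pups. Pair ratios and pup differences used log2(TPM + 0.1), which understates ratios and changes of low genes, and differences were read at a mean count of 100 or more. The calculation of the pup difference was tested on simulated gene counts with known changes. These did not model how reads are shared among transcripts. The labels name separate animals. Expected counts were rounded for edgeR 4.0.16 (TMM factors) and DESeq2 1.42.0 (size factors), under R 4.3.3, used for scaling only; other steps ran in Python 3.11.15 with pandas 2.3.3 and SciPy 1.17.1. Named genes were all members, both genes of 16 pairs, the 3 highest and the lowest of each pathway list, and list genes past 1 between pups; a few of these are not reported here. Others are named where their values bear on a member or on the reading of a marker list, and were chosen after they were seen. Lists and members were chosen with earlier results of these data known. The markers of choroid plexus (summed 6.02 and 9.86 TPM in pups 1 and 3) and meninges (311.5 and 321.4 TPM) were also read. Neither list moved in 1 direction: 2 choroid plexus markers were higher in pup 3 and 3 lower, and 2 meningeal markers were higher and 2 lower. The choroid plexus sum rose mainly through Ttr (0.85 and 5.16 TPM).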

Additional observations from a re-analysis of the deposited data

How the results depend on the processing

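The median level of the 9 genes was 2.84 TPM by their mean over both pups. It was 3.40 TPM when TPM was rescaled to nuclear protein-coding genes, and 2.30 to 2.70 TPM with either pup left out. At a threshold of 0.5 TPM 9 of the 9 genes were detected and at 5 TPM 2, beside 5 at 1 TPM. The share of all genes past 1 between the pups was 0.315%. It was 2.12% at a mean count of 10, 5.42% with no filter and 0.203% with a pseudocount of 1, and 0 of the members passed under each of these. Signs turned for Smo against Ptch1 (-0.58 by reads not divided by length), Gli2 against Gli1 (0.57 by posterior mean TPM, 0.15 by reads) and the pup difference of Gli2 (-0.08 with TMM and -0.08 with DESeq2 size factors). TPM divides reads by an estimated length, which was 6709 and 6510 bases for Ptch1 in pups 1 and 3 and 3680 for Smo in both. For Gli2 it was 5804 bases in pup 1 and 5103 in pup 3. The cause was not tested beyond these values. The values of the other 20 alternatives of the summary results stayed within the pups' spread or within 1.5 times. These include the count of neighbouring genes apart by reads, 3 as by TPM. That count held other pairs, since the order differed and the neighbouring pairs apart by TPM were not neighbours by reads. The median log2 difference between pups over all genes was 0.02 by TPM and -0.01 by TMM. Depth limits Shh, Gli1, Gli2 and Cdon, each under a mean count of 100. No paired analysis was possible because there was only 1 group, and a pup difference has no value with either pup left out.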
